A study of Mus musculus with 6 samples.

Results

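The expression of 10 genes of the Notch pathway and the segmentation clock was followed in neuromesodermal progenitors (NMPs) after a short pulse of retinoic acid (RA). The 10 genes were *Notch1*, *Dll1*, *Dll3*, *Lfng*, *Nrarp*, *Hes1*, *Hes3*, *Hes5*, *Hes7* and *Hey1*, taken by gene symbol from the 20631 genes quantified, and each of them was found in all 6 samples. NMPs were made from mouse embryonic stem cells (ESCs) by 2 days in bFGF, a fibroblast growth factor, and 1 day in bFGF with CHIR99021, a compound that activates WNT signaling. They were then kept for 2 h with DMSO (the solvent control), with 25 nM RA or with 1 µM RA, in 2 culture dishes for each condition, and total RNA depleted of ribosomal RNA was sequenced. No animals or genetic changes were involved: the 3 groups shared the same ESC line, with the strain given as 129 R1 in the sample labels and as C57BL/6 in the study's methods. They also shared the medium of the last 2 h, which was N2B27 with a retinoid-free B27 supplement and without bFGF or CHIR99021. The ESCs had been grown on embryonic fibroblast feeders. The 2 dishes of a condition are technical replicates of one differentiation, so p-values here measure the spread between dishes and not between independent cultures.

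Notch is a receptor at the cell surface that is activated by ligands of the Delta and Jagged families on a neighbouring cell. Activation releases the intracellular part of the receptor, which enters the nucleus, binds the DNA-binding protein RBPJ and switches on target genes, many of which encode basic helix-loop-helix (bHLH) repressors of the Hes and Hey families. In the presomitic mesoderm, a tissue that NMPs give rise to, some of these targets oscillate: HES7 represses its own gene and *Lfng*, and together with periodic WNT and FGF target genes this sets the pace at which somites form. RA acts through nuclear receptors that bind DNA and is made by the somites and presomitic mesoderm of the embryo.

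Each of the 10 genes was quantified as 1 RefSeq transcript on the mouse genome build mm10. The receptor gene *Notch1* (NM_008714) lies at chr2:26457902-26503822 on the minus strand. Of the ligand genes, *Dll1* (NM_007865) lies at chr17:15367354-15375823 and *Dll3* (NM_007866) at chr7:28293555-28301785, both on the minus strand. *Lfng* (NM_008494) lies at chr5:140607341-140615545 and *Nrarp* (NM_025980) at chr2:25180758-25183332, both on the plus strand. Of the repressor genes, *Hes1* (NM_008235) lies at chr16:30065357-30067796, *Hes5* (NM_010419) at chr4:154960923-154962371 and *Hes7* (NM_033041) at chr11:69120453-69123259, all on the plus strand. *Hes3* (NM_008237) lies at chr4:152285972-152291662 and *Hey1* (NM_010423) at chr3:8663359-8667038, both on the minus strand. In the GENCODE annotation of the same build, *Notch1*, *Dll1*, *Nrarp*, *Hes5* and *Hes7* share exonic sequence with a gene on the opposite strand. The strand setting of the authors' counting is not given in the sources used here, so reads from those partners cannot be told apart from reads of the 5 genes.

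RefSeq promoter sequence of build GRCm38.p6 (mm10) was matched for 7 of the 10 genes, *Dll1* with more than 1 start, and not for *Hes1*, *Hes3* and *Hey1*. The 250 bases before each start were searched on both strands for GTGGGAA, the core of the RBPJ site, for CACGTG, an E-box, and for AGGTCA, the half-site bound by RA receptors. GTGGGAA was found in 3 of the 7 genes, *Lfng*, *Hes7* and *Hes5*, and in 5.42% of all 32851 promoters searched in the same way. Their promoters are printed to show where the letters lie, with the match in capitals. In *Hes7*, and in the first of the *Hes5* matches, the capitals read on the opposite strand, as TTCCCAC.
Lfng promoter, chr5:140607091-140607340, plus strand: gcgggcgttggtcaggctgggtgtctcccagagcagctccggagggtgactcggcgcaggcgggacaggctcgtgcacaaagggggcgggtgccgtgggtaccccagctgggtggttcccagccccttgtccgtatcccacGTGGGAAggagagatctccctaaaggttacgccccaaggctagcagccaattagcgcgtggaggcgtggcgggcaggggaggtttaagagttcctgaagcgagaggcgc
Hes7 promoter, chr11:69120203-69120452, plus strand: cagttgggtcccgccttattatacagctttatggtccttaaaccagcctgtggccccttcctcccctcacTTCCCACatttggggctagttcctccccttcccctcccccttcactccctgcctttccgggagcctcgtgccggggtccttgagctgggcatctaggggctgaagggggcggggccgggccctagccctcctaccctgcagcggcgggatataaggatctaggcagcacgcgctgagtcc
Hes5 promoter, chr4:154960673-154960922, plus strand: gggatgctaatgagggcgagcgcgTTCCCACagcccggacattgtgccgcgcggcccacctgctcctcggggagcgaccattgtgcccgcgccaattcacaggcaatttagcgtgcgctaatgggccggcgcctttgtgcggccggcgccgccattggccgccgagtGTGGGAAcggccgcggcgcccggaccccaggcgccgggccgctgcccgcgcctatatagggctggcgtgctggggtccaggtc
The match began 109 bases before the start in *Lfng*, 180 bases before it in *Hes7*, and 226 and 83 bases before it in *Hes5*. CACGTG was found in *Lfng*, at 112 bases before the start where it overlaps the GTGGGAA match, and in *Nrarp*, at 108 bases before it, against 6.02% of all promoters. AGGTCA was found in 1 of the *Dll1* promoters, at 109 bases before the start, against 14.0% of all promoters. Of the 3 genes that share GTGGGAA, *Lfng* and *Hes7* fell after 1 µM RA. *Hes5* rose at that dose, at 16 to 40 estimated counts per dish, a rise that was not called in each refit given below. Any part of the matches in these changes was not tested.

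Total estimated counts were 31753556 to 42029348 per sample, and scaling factors between samples ran from 0.989 to 1.01. The NMP marker *T* was at 375 RPKM (reads per kilobase of transcript, scaled to sequencing depth) in DMSO, and *Sox2* at 5.20 RPKM. All 7 genes listed as known RA targets were higher at both doses. Of all genes, 4.5% were higher after 25 nM RA and 8.54% after 1 µM RA. The list was chosen with earlier results of these data known, so the count is not an independent check. *Cyp26a1*, which encodes an enzyme that degrades RA, was at 52.4 RPKM in DMSO, 178 in 25 nM RA and 278 in 1 µM RA. *Stra8* rose after 25 nM RA from 0.0162 to 0.759 RPKM (edgeR adjusted p = 2.70e-25). The study, which asked for an RPKM above 1, counted *Stra8* as activated by 1 µM RA only. The 2 dishes of 1 µM RA differed more than those of the other conditions over the 10 genes, with a summed chi-square of 56.3 against 17.6 for DMSO and 21.1 for 25 nM RA. The direction was the same over the wider set of genes, but the excess relative to the other conditions was smaller there than in the 10 genes. Over 14821 to 14929 genes the mean chi-square per gene was 5.88 in 1 µM RA, 4.01 in DMSO and 3.82 in 25 nM RA. Because whole dishes were sequenced, fewer cells of a type and less RNA per cell cannot be told apart.

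The 10 genes ranged from barely detected to abundant. In DMSO the order by RPKM, which is scaled for length and so may be compared between genes, was *Hes1*, *Dll3*, *Dll1*, *Lfng*, *Notch1*, *Nrarp*, *Hey1*, *Hes7*, *Hes5* and *Hes3*. *Hes1*, at 33.3 ± 1.07 RPKM (SD, n = 2), lay above 90.2% of all genes, and *Hes3*, at 0.289 ± 0.0483 RPKM, above 35.4%. Each gene's lower dish lay above the next gene's higher dish, except that *Hes5* and *Hes3* overlapped. The order was the same after 25 nM RA and after 1 µM RA. After 1 µM RA, however, *Nrarp* at 4.07 ± 0.0136 RPKM and *Hey1* at 4.04 ± 0.0438 RPKM had come to overlap, as had *Hes7* at 0.700 ± 0.0776 RPKM and *Hes5* at 0.629 ± 0.121 RPKM. The summed RPKM of the 10 genes was 113 ± 1.25 in DMSO, 96.9 ± 0.127 in 25 nM RA and 93.8 ± 2.08 in 1 µM RA.

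**Figure D1:**
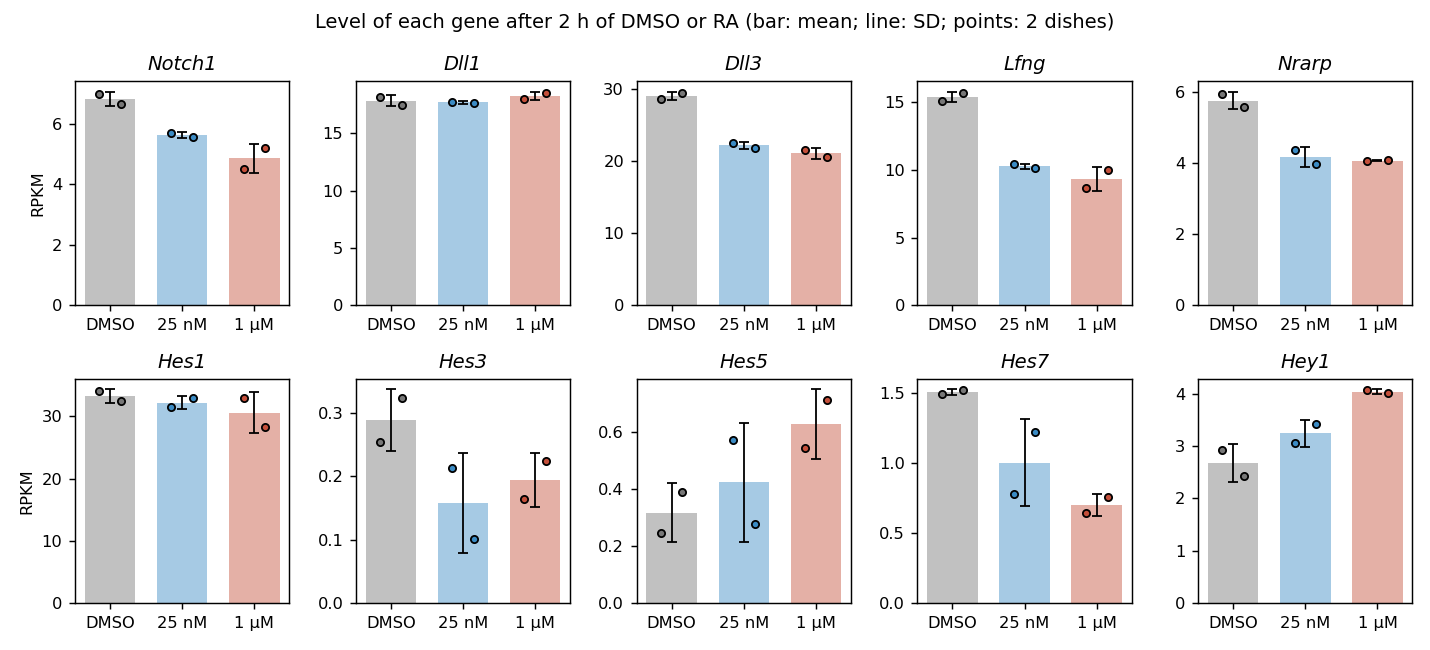
Level of each of the 10 genes in RPKM (vertical axis, linear and starting at 0 in each panel) for DMSO, 25 nM RA and 1 µM RA; bars are means, lines are SD and points are the 2 dishes. *Notch1*, *Dll3*, *Lfng*, *Nrarp*, *Hes7* and *Hes3* have both dishes of each RA dose below both DMSO dishes, though *Hes3* was called at neither dose and *Hes7* not at 25 nM RA. *Dll1* is level near 18 RPKM, and *Hes5* and *Hey1* are highest in 1 µM RA.

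After 25 nM RA, *Lfng*, *Nrarp*, *Dll3* and *Notch1* were lower than in DMSO and no gene of the 10 passed as higher. The 4 genes called were 4 of 10, against 8.05% of the 15143 genes tested, and against 3.55% called lower. A gene was called when its adjusted p was under 0.1 in the likelihood ratio test of edgeR on estimated counts, with Benjamini-Hochberg adjustment over all genes tested. None of the 10 was called higher at 25 nM RA in edgeR or in DESeq2, beside 4.5% of all genes in edgeR. At an unadjusted p under 0.05, 7 of the 10 passed in edgeR, beside 14.9% of all genes, with *Hey1* the gene that was higher. After 1 µM RA, 7 of the 10 were called against 19.7% of all genes: *Lfng*, *Dll3*, *Notch1*, *Nrarp* and *Hes7* were lower, against 11.2% of all genes called lower, and *Hes5* and *Hey1* were higher, against 8.54% called higher. Over the 10 genes the median log2 fold change came to -0.34 for 25 nM RA and -0.49 for 1 µM RA, beside medians of -0.00051 and 0.0013 over all genes tested. The dishes did not overlap with DMSO for 7 of the 10 genes at 25 nM RA and for 8 of the 10 at 1 µM RA, but this held for 44.4% and 54.4% of all genes as well. Both comparisons use the same 2 DMSO dishes, so their values are not independent. Under the stricter criteria of the study (a log2 fold change above 1 with an RPKM above 1, or below -0.6 with a DMSO RPKM above 7), 0 of the 10 genes passed at 25 nM RA, beside 0.475% of all genes, and at 1 µM RA 1 passed, *Lfng*, beside 0.707%. At an adjusted p under 0.05 the counts stayed at 4 and 7, beside 6.42% and 15% of all genes.

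*Notch1* encodes the receptor. Its level was 6.98 and 6.65 RPKM in the DMSO dishes, 5.68 and 5.55 RPKM after 25 nM RA, and 4.51 and 5.19 RPKM after 1 µM RA. The 3 conditions did not overlap, with the DMSO dishes highest and the 1 µM RA dishes lowest and furthest apart. In edgeR *Notch1* fell at 25 nM RA with a log2 fold change of -0.29 ± 0.060 (SE, adjusted p = 9.11e-05). At 1 µM RA it fell to 0.708 of the DMSO level, or -0.50 ± 0.061 on the log2 scale (adjusted p = 2.10e-14).

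Of the Delta ligands, *Dll3* fell at both doses and *Dll1* was not called at either. *Dll3* encodes a divergent ligand that acts inside the cell and is needed for regular somites. It was at 28.7 and 29.5 RPKM in DMSO, 22.5 and 21.8 RPKM in 25 nM RA, and 21.6 and 20.6 RPKM in 1 µM RA. Both dishes of either dose were below both DMSO dishes by more than 6 RPKM. The log2 fold change of *Dll3* was -0.40 ± 0.054 (SE, edgeR adjusted p = 3.06e-11) at 25 nM RA and -0.47 ± 0.054 (adjusted p = 3.70e-16) at 1 µM RA. *Dll1*, the ligand that activates Notch on neighbouring cells, was at 18.2 and 17.5 RPKM in DMSO, 17.8 and 17.6 RPKM in 25 nM RA, and 18.1 and 18.5 RPKM in 1 µM RA. The dishes of each dose overlapped with those of DMSO. The 95% interval of the log2 change of *Dll1* ran from -0.12 to 0.08 at 25 nM RA and from -0.07 to 0.13 at 1 µM RA, in edgeR with adjusted p = 0.945 and 0.795.

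*Lfng* and *Nrarp*, a modifier and a feedback inhibitor of the receptor, both fell at both doses. *Lfng* encodes Lunatic fringe, a glycosyltransferase that adds sugar to Notch and changes its response to ligands, and its mRNA oscillates in the presomitic mesoderm. It was at 15.1 and 15.7 RPKM in DMSO, 10.4 and 10.1 RPKM in 25 nM RA, and 8.71 and 9.98 RPKM in 1 µM RA. Every RA dish lay more than 4 RPKM below both DMSO dishes, and the 1 µM RA dishes were further apart than those of the other conditions. In edgeR the log2 fold change of *Lfng* was -0.59 ± 0.066 (SE, adjusted p = 3.06e-17) at 25 nM RA, which is 0.665 of the DMSO level, and -0.73 ± 0.066 (adjusted p = 4.09e-26) at 1 µM RA, which is 0.604 of it. *Nrarp*, a Notch target whose protein binds the nuclear complex and promotes loss of the active receptor, was at 5.93 and 5.58 RPKM in DMSO, 4.37 and 3.97 RPKM in 25 nM RA, and 4.06 and 4.08 RPKM in 1 µM RA. The RA dishes of both doses overlapped with each other and lay below DMSO. The log2 fold change of *Nrarp* was -0.48 ± 0.078 (SE, edgeR adjusted p = 5.12e-08) at 25 nM RA and -0.51 ± 0.078 (adjusted p = 2.25e-09) at 1 µM RA.

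The Hes and Hey repressor genes did not move as a group. *Hes1*, a widespread Notch target that is also under other signals and the most abundant of the 10 genes, was at 34.0 and 32.5 RPKM in DMSO, 31.4 and 32.9 RPKM in 25 nM RA, and 32.9 and 28.3 RPKM in 1 µM RA. The conditions overlapped, and the lowest value came from a single 1 µM RA dish. The log2 fold change of *Hes1* was -0.05 ± 0.069 (SE, edgeR adjusted p = 0.858) at 25 nM RA and -0.13 ± 0.069 (adjusted p = 0.220) at 1 µM RA. *Hes1* passed the test at 1 µM RA when that condition's replicate 1 was left out (log2 fold change -0.25, adjusted p = 0.00258).

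*Hes7*, the core clock repressor of the presomitic mesoderm, was at 1.49 and 1.52 RPKM in DMSO, 0.782 and 1.22 RPKM in 25 nM RA, and 0.645 and 0.755 RPKM in 1 µM RA. The 3 conditions did not overlap, and the 25 nM RA dishes were far apart, with estimated counts of 29 and 57 behind them. In edgeR *Hes7* fell at 1 µM RA with a log2 fold change of -1.11 ± 0.25 (SE, adjusted p = 7.25e-05), which is 0.464 of the DMSO level. At 25 nM RA its log2 fold change was -0.56 ± 0.22 (adjusted p = 0.130), and it ran from -0.95 without that condition's replicate 2 (adjusted p = 0.0403) to -0.29 without its replicate 1.

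*Hey1*, a repressor of the related Hey family and a Notch target, was at 2.93 and 2.42 RPKM in DMSO, 3.07 and 3.42 RPKM in 25 nM RA, and 4.08 and 4.01 RPKM in 1 µM RA. It moved the opposite way to *Lfng* and *Nrarp*, with the DMSO dishes lowest and no overlap between conditions. In edgeR *Hey1* rose at 1 µM RA by 0.58 ± 0.10 on the log2 scale (SE, adjusted p = 4.79e-07), to 1.49 times the DMSO level. At 25 nM RA its log2 fold change of 0.27 ± 0.11 missed the threshold (adjusted p = 0.122), but passed it when DMSO replicate 1 was left out (0.42, adjusted p = 0.0330) or 25 nM RA replicate 1 (0.35, adjusted p = 0.0902).

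*Hes5*, a Notch target of neural progenitors, was at 0.244 and 0.390 RPKM in DMSO, 0.572 and 0.276 RPKM in 25 nM RA, and 0.543 and 0.715 RPKM in 1 µM RA. Estimated counts were 16 to 40 per dish, and the 1 µM RA dishes lay above both DMSO dishes while the 25 nM RA dishes overlapped with them. In edgeR *Hes5* rose at 1 µM RA with a log2 fold change of 1.00 ± 0.34 (SE, adjusted p = 0.0216). That call was lost in DESeq2 (adjusted p = 0.280), with transcripts fitted separately (adjusted p = 0.405, edgeR), without DMSO replicate 1 (adjusted p = 0.345) and without 1 µM RA replicate 2 (adjusted p = 0.217). *Hes3*, a repressor of early neural progenitors, was at 0.255 and 0.323 RPKM in DMSO, 0.213 and 0.102 RPKM in 25 nM RA, and 0.164 and 0.224 RPKM in 1 µM RA. Its 9 to 25 estimated counts per dish left 95% intervals of -1.65 to -0.17 at 25 nM RA and -1.25 to 0.13 at 1 µM RA for the log2 change, and it was not called (edgeR adjusted p = 0.140 and 0.299). Without 25 nM RA replicate 1, *Hes3* passed the threshold at that dose (-1.47 on the log2 scale, adjusted p = 0.0634).

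**Figure D2:**
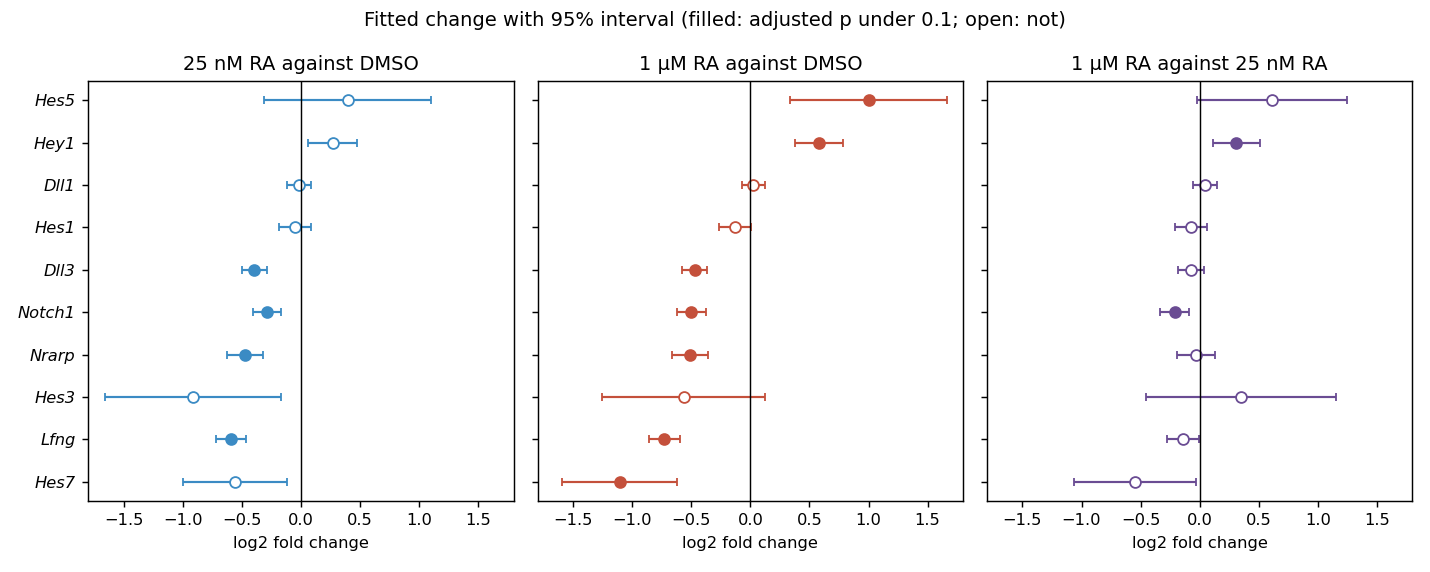
Fitted log2 fold change (horizontal axis) of each gene for 25 nM RA against DMSO, 1 µM RA against DMSO and 1 µM RA against 25 nM RA; lines are 95% intervals and filled points have an edgeR adjusted p under 0.1. *Lfng*, *Nrarp*, *Notch1* and *Dll3* are filled and left of 0 at both doses, *Hes5* and *Hey1* are filled and right of 0 at 1 µM RA, and the intervals of *Hes3* and *Hes5* are the widest.

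The direct test of 1 µM RA against 25 nM RA asked whether the higher dose moved the 10 genes further. It called 2 of the 10 genes, against 3.41% of all genes, with 0.792% called higher and 2.62% lower. At an adjusted p under 0.05 it called 1, *Notch1*, beside 2.25% of all genes, and under the criteria of the study 0, beside 0.033%. *Notch1* was lower at 1 µM RA than at 25 nM RA, with a log2 difference of -0.21 ± 0.062 (SE, edgeR adjusted p = 0.0310). *Hey1* was higher, with a log2 difference of 0.31 ± 0.10 (adjusted p = 0.0757). Both calls depended on the fit. The *Notch1* call was lost in DESeq2 (adjusted p = 0.139), with transcripts fitted separately (adjusted p = 0.235, edgeR), and without 25 nM RA replicate 1, 25 nM RA replicate 2 or 1 µM RA replicate 1 (adjusted p = 0.275, 0.184 and 0.483). The *Hey1* call was lost in the edgeR quasi-likelihood test (adjusted p = 0.154), in DESeq2 (0.501), without a filter on low counts (0.102), with transcripts fitted separately (0.641), and without 25 nM RA replicate 1, 1 µM RA replicate 1 or 1 µM RA replicate 2 (0.624, 0.320 and 0.143).

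For the 8 other genes no difference between the doses passed the threshold, and the intervals set how large one could be. *Nrarp* had the value nearest to 0 of these genes, with a log2 difference of -0.03 and a 95% interval of -0.19 to 0.13. For *Dll3* the interval ran from -0.19 to 0.03, and for *Dll1* from -0.06 to 0.14. For *Hes1* the interval ran from -0.21 to 0.06, and for *Hes3* from -0.45 to 1.15. For *Lfng* it ran from -0.27 to -0.003 (edgeR adjusted p = 0.374), and the difference passed the threshold without 1 µM RA replicate 2 (adjusted p = 0.0831). For *Hes7* it ran from -1.07 to -0.03 and for *Hes5* from -0.03 to 1.24, so a change of over 1 log2 unit between the doses remained within both. The dishes of the RA doses did not overlap for 6 of the 10 genes, beside 43.6% of all genes.

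The rest of the Notch pathway was followed in 5 lists of 59 genes, of which 55 were tested. At 25 nM RA 4 of the 55 were higher and 4 lower, which is 14.5%, and at 1 µM RA 6 were higher and 17 lower, which is 41.8%, beside 8.05% and 19.7% of all genes. The median log2 fold change of the 55 genes was -0.04 and -0.10, and so nearer to 0 than that of the 10 genes.

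Among the other receptors and ligands, 2 of 8 tested were lower at 25 nM RA, beside 3.55% of all genes, and 4 of 8 at 1 µM RA, beside 11.2%. At either dose 0 were higher in edgeR or DESeq2. The genes with an unadjusted p under 0.05 were 3 of 8 and 4 of 8, all lower, beside 14.9% and 26.4% of all genes. *Jag1*, a ligand of the Jagged family, was at 12.6 and 12.7 RPKM in DMSO, 9.25 and 9.56 RPKM in 25 nM RA, and 8.37 and 8.83 RPKM in 1 µM RA. Its log2 fold change was -0.43 ± 0.053 at 25 nM RA (SE, edgeR adjusted p = 3.55e-14) and -0.56 ± 0.053 at 1 µM RA (adjusted p = 3.29e-24). The receptor gene *Notch3* also fell at both doses, with log2 fold changes of -0.34 (edgeR adjusted p = 2.70e-07) and -0.51 (adjusted p = 1.44e-16). *Notch2* fell at 1 µM RA, at -0.37 (edgeR adjusted p = 2.71e-10), and at 25 nM RA its value was -0.12 (adjusted p = 0.188). *Dner*, a non-classical ligand, was the fourth gene lower at 1 µM RA (log2 fold change -0.35, edgeR adjusted p = 0.0742), a call that was lost in 6 of 16 refits. *Dll4*, a ligand of blood vessel endothelium, was too low to test, with at most 0.0411 RPKM in any dish.

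The machinery that processes the receptor was read beside the 8.05% of all genes called at 25 nM RA and 19.7% at 1 µM RA. Of 14 genes of glycosylation and cleavage, none passed at 25 nM RA in edgeR and 2 were lower at 1 µM RA: *Aph1b*, of the gamma-secretase that cuts Notch, fell by 0.56 on the log2 scale (adjusted p = 0.00479), and *Furin*, a protease that matures the receptor, fell by 0.18 (adjusted p = 0.0434). The most abundant genes of the list were *Psenen* and *Aph1a*, also of gamma-secretase, at 22.8 and 19.4 RPKM in DMSO, and neither was called. At an unadjusted p under 0.05, 4 of the 14 passed at 25 nM RA in edgeR, beside 14.9% of all genes, and DESeq2 called 0 of them at either dose. Of 13 genes of trafficking and turnover, 1 was lower at 25 nM RA, and 3 were lower and 1 higher at 1 µM RA. *Neurl1a*, a ubiquitin ligase for Notch ligands, was the gene lower at both, with log2 fold changes of -0.27 (edgeR adjusted p = 0.0402) and -0.40 (adjusted p = 0.000194). That call at 25 nM RA was lost in 5 of 16 refits (adjusted p up to 0.525). *Mib1*, the ubiquitin ligase that makes Delta ligands active, had 27.6 RPKM in DMSO and 26.8 and 26.7 RPKM in the RA doses, and was not called.

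Of 16 genes of the nuclear complex and its corepressors, 3 were higher and 1 lower at 25 nM RA, beside 4.5% and 3.55% of all genes. At 1 µM RA 4 were higher and 8 lower, beside 8.54% and 11.2% of all genes. The genes of the Groucho-related (TLE) family, some of whose proteins are recruited by HES repressors, held the largest changes of this list. *Tle6* was at 0.260 and 0.364 RPKM in DMSO, 0.942 and 1.09 RPKM in 25 nM RA, and 1.22 and 1.31 RPKM in 1 µM RA, with log2 fold changes of 1.73 ± 0.23 (SE, edgeR adjusted p = 1.48e-13) and 2.03 ± 0.23 (adjusted p = 7.49e-21). *Tle2* rose from 0.0824 RPKM in DMSO to 0.299 and 0.305 RPKM, with log2 fold changes of 1.74 (edgeR adjusted p = 4.08e-06) and 1.83 (adjusted p = 3.53e-07). *Aes*, a short member of the family, rose from 8.80 to 11.4 and 11.5 RPKM. *Tle4* fell from 11.8 RPKM in DMSO to 9.17 RPKM in 1 µM RA, with log2 fold changes of -0.25 (edgeR adjusted p = 8.54e-05) and -0.39 (adjusted p = 1.94e-11), and its call at 25 nM RA was lost in 1 of 16 refits, as was that of *Aes*. By level the higher *Tle2* and *Tle6* stayed below *Tle4* in RPKM in each condition.

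Of the other Hes- and Hey-related repressor genes, 4 of 7 were tested and 1 was called, beside 8.05% of all genes at 25 nM RA and 19.7% at 1 µM RA. *Bhlhe40*, a bHLH repressor of the related DEC family, was at 4.42 and 3.88 RPKM in DMSO, 9.01 and 7.92 RPKM in 25 nM RA, and 9.73 and 9.56 RPKM in 1 µM RA. It rose with log2 fold changes of 1.02 ± 0.077 (SE, edgeR adjusted p = 7.99e-38) and 1.21 ± 0.076 (adjusted p = 8.35e-55), larger fitted values than those of *Hey1* and *Hes5* at the same doses, a difference that was not tested. *Hes6*, which opposes *Hes1*, was at 21.8 RPKM in DMSO and was not called, with log2 fold changes of -0.05 and -0.14 (edgeR adjusted p = 0.845 and 0.126).

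**Figure D3:**
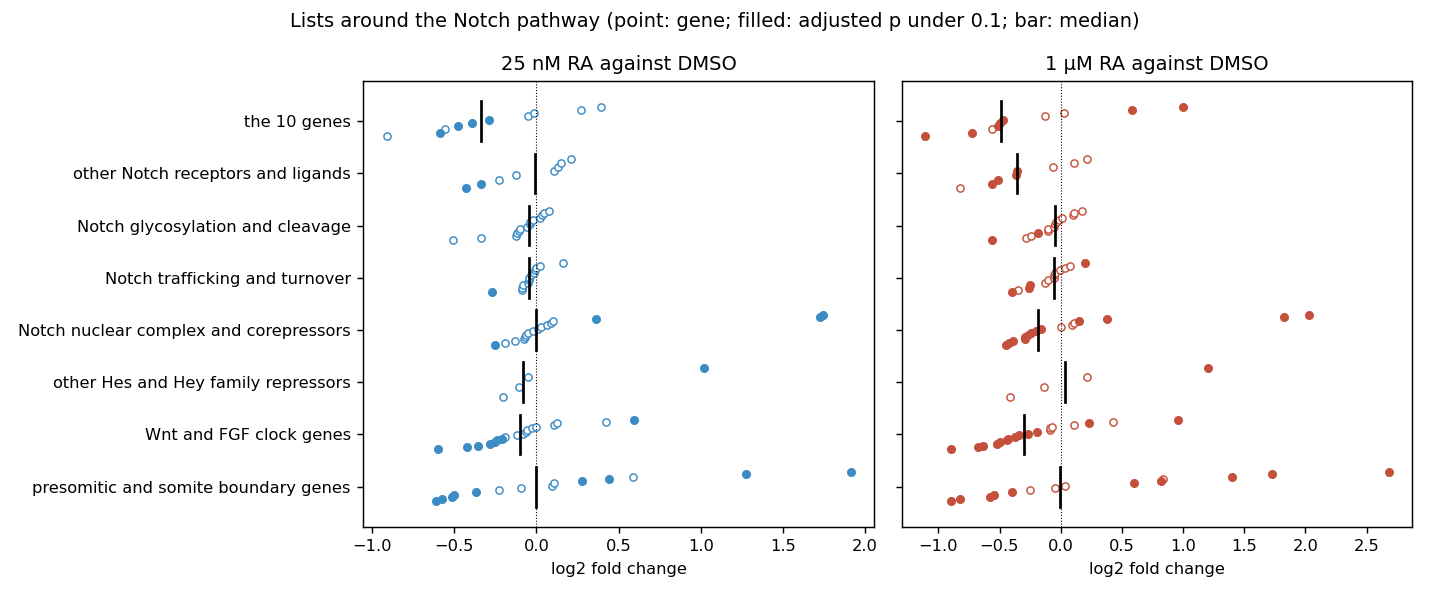
Fitted log2 fold change (horizontal axis) of each tested gene in the 10 genes and in 7 lists around them, for 25 nM RA and 1 µM RA against DMSO; filled points have an edgeR adjusted p under 0.1 and the vertical bar is the median of the list. The median of the 10 genes is -0.34 and -0.49, the other receptors and ligands have medians of -0.01 and -0.36, and the filled points at the far right are *Tle2*, *Tle6*, *Bhlhe40*, *Tcf15* and *Meox1* at 25 nM RA.

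The segmentation clock has WNT and FGF branches beside the Notch branch. Of 18 genes of those branches, 1 was higher and 7 were lower at 25 nM RA, beside 4.5% and 3.55% of all genes. At 1 µM RA 2 were higher and 11 lower, beside 8.54% and 11.2% of all genes. The median log2 fold change was -0.10 and -0.30. At 25 nM RA the 7 lower genes became 4 without DMSO replicate 1, DMSO replicate 2 or 25 nM RA replicate 1, and 3 without 25 nM RA replicate 2 or in DESeq2. *Myc* fell from 11.6 RPKM to 7.71 and 6.27 RPKM, with log2 fold changes of -0.60 (edgeR adjusted p = 3.42e-10) and -0.90 (adjusted p = 2.45e-22). *Sp5*, a WNT target, fell from 18.1 RPKM to 14.2 and 11.4 RPKM, with log2 fold changes of -0.36 (edgeR adjusted p = 0.000233) and -0.67 (adjusted p = 3.78e-15). *Dusp4*, an FGF target that dampens ERK, fell by 0.21 and 0.38 on the log2 scale (edgeR adjusted p = 0.000780 and 4.66e-12). *Dact1*, a WNT modulator, moved the other way, from 3.38 RPKM to 5.11 RPKM and to 6.76 and 6.44 RPKM in the 1 µM RA dishes (log2 fold change 0.59 and 0.96, edgeR adjusted p = 2.01e-12 and 1.10e-34). *Dusp6*, the most abundant of the list, was at 81.7 RPKM in DMSO and rose at 1 µM RA by 0.23 on the log2 scale (edgeR adjusted p = 3.06e-05).

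The genes of the presomitic mesoderm and the somite boundary divided by direction. At 25 nM RA 4 of 14 were higher and 5 lower, beside 4.5% and 3.55% of all genes. At 1 µM RA 5 were higher and 5 lower, beside 8.54% and 11.2% of all genes. *Msgn1*, a bHLH activator of the presomitic mesoderm, was at 27.0 and 27.8 RPKM in DMSO, 20.9 and 18.1 RPKM in 25 nM RA, and 14.1 and 15.4 RPKM in 1 µM RA. Its log2 fold change was -0.50 ± 0.081 (SE, edgeR adjusted p = 3.54e-08) at 25 nM RA and -0.90 ± 0.085 (adjusted p = 1.57e-24) at 1 µM RA. *Mesp1*, of early mesoderm and somite boundaries, fell from 48.6 RPKM to 32.8 and 32.7 RPKM, with log2 fold changes of -0.57 (edgeR adjusted p = 2.42e-20) and -0.58 (adjusted p = 5.33e-21). *Tcf15* and *Foxc1*, genes of forming somites, rose, *Tcf15* by 1.28 and 1.40 (edgeR adjusted p = 9.85e-16 and 7.95e-20) and *Foxc1* by 0.27 and 0.60 (adjusted p = 0.00111 and 1.11e-18) on the log2 scale.

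For each of the 7 called genes, the genes with the most similar values over the 6 samples were found among 11250 genes, by the root mean square difference of depth-scaled log2 counts relative to the DMSO mean. This is a description of these 6 samples, which share their DMSO dishes. *Lfng* was nearest to *Sgk1*, a kinase gene, with a difference of 0.0570 log2 units, then to *Pxdc1* and *Gcnt2*. *Dll3* was nearest to *Irs1* (0.0297), then to *Fgf5* and *Fam84b*. *Notch1* was nearest to *Pik3c2b* (0.0309), then to *Ticam1* and *Ptch1*. *Nrarp* was nearest to *Rdh10* (0.0320), which encodes a retinol dehydrogenase of RA synthesis and went from 9.92 RPKM in DMSO to 7.27 and 7.17 RPKM, then to *Myb* and *Lbh*. *Hey1* was nearest to *Foxc1* (0.0709), then to *Krt222* and *Pacsin1*. *Hes7* was nearest to *Sox17* (0.179), then to *Prr12* and *Foxj2*. *Hes5* had the least close neighbours, *Snord16a* (0.262), *C920006O11Rik* and *C330021F23Rik*.

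Markers of other cell types that a dish could hold were read beside these results. The summed RPKM of 9 endoderm markers was 50.5 to 51.2 in the DMSO dishes, 42.4 to 42.9 in 25 nM RA and 39.3 to 43.2 in 1 µM RA. Of the 7 endoderm markers tested, 4 were lower at each dose in edgeR and 2 in DESeq2, in the direction of *Notch1*, *Dll3*, *Lfng*, *Nrarp* and *Hes7*. Over all genes 3.55% were lower at 25 nM RA and 11.2% at 1 µM RA in edgeR. *Sox17* was at 6.76 RPKM in DMSO and 4.50 and 3.43 RPKM in the RA doses, and *Foxa2* at 14.4, 11.1 and 9.78 RPKM. Their part in the lower values was not tested. The summed RPKM of 9 fibroblast feeder markers was 7.47 to 7.63 in DMSO, 9.24 to 9.38 in 25 nM RA and 9.26 to 9.29 in 1 µM RA, with *Pdgfrb* going from 1.15 to 3.13 and 3.68 RPKM. Without *Pdgfrb* the other 8 summed to 6.30 to 6.50 in DMSO, 6.06 to 6.30 in 25 nM RA and 5.52 to 5.67 in 1 µM RA. The feeder marker *Lum* was at 0 in 1 dish of 25 nM RA. Any part of feeder cells in the values of the 10 genes was not tested. Of the 8 feeder markers tested, 1 was higher at 25 nM RA, beside 4.5% of all genes. At 1 µM RA 1 feeder marker was higher and 3 lower, beside 8.54% and 11.2% of all genes. In DESeq2 those 3 lower calls became 0. For 9 naive ESC markers the sums were 8.36 to 9.26 in DMSO, 10.2 to 10.3 in 25 nM RA and 9.41 to 10.04 in 1 µM RA, and for 8 committed neural markers they were 36.0 to 38.1, 34.7 to 36.9 and 33.4 to 35.4. Most of the neural sum in DMSO came from *Stmn2* at 22.5 RPKM and *Tubb3* at 11.6 RPKM. *Sox1*, at 0.237 RPKM, and *Pax6*, at 0.0524 RPKM, were barely detected there. For 9 endothelial and blood markers the sums were 6.10 to 7.08, 6.79 to 7.03 and 7.23 to 8.17, with *Ptprc* at 0 in at least 1 dish of each condition and *Hbb-bh1* at 0 in 1 dish of 1 µM RA. The 10 NMP markers summed to 515 to 526 in DMSO, 601 to 618 in 25 nM RA and 596 to 615 in 1 µM RA. *T* was level, at 375, 375 and 370 RPKM. Among the genes behind the higher sums, *Nkx1-2* went from 39.1 RPKM to 79.5 and 77.7 RPKM, and *Sox2* from 5.20 to 15.4 and 16.3 RPKM. *Fgf8* fell, with log2 fold changes of -0.22 and -0.26 (edgeR adjusted p = 0.00368 and 7.71e-05). The sums thus follow single genes that changed with RA, and any change in the number of NMPs was not tested. At 1 µM RA 2 of the 9 naive ESC markers tested were higher, 2 of the 8 committed neural markers lower, 2 of the 6 endothelial and blood markers tested higher and 1 lower, and 5 of the 9 NMP markers tested higher and 1 lower, beside 8.54% of all genes higher and 11.2% lower. The 2 lower neural markers became 1 in the quasi-likelihood test of edgeR and 0 in DESeq2.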

How the data were processed

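Total RNA from 6 samples (2 dishes each of DMSO, 25 nM RA and 1 µM RA) was made into stranded, ribosome-depleted libraries and sequenced as 50 bp single-end reads. The authors aligned reads to mm10 and deposited, for 30352 RefSeq transcripts per sample, estimated counts from an expectation-maximization method and RPKM values. Per the labels' processing notes FastQC 0.11, TopHat2 2.0.13, Bowtie2 2.2.5.0 and Partek 6.6 were used. Total estimated counts of 31753556 to 42029348 per sample lie behind each value.

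Deposited estimated counts were summed per gene and rounded, and deposited RPKM values summed per gene (20631 genes). All counts of the 10 genes were whole. Genes were filtered with filterByExpr (15143 kept), scaled by TMM and tested over all 6 samples with the likelihood ratio test of edgeR 4.0.16 (R 4.3.3), the test named in the study's methods, with 1 coefficient per condition. Genes with a Benjamini-Hochberg adjusted p under 0.1 were called. SE came from the information matrix of the fit and 95% intervals are 1.96 SE to either side. The procedure was tested on simulated counts. Alternatives used DESeq2 1.42.0, other scalings and filters, the 4 samples of a comparison alone, a block for replicate number, transcripts fitted separately and leaving out each sample. All 10 genes are named. From each list at most 4 genes are named, those called with the smallest adjusted p and with no overlap between dishes, and the 2 genes highest in DMSO. The genes *Dll4* and *Meox1* were named after their values were seen. The 10 genes and the lists were chosen with earlier results of these data known.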

Additional observations from a re-analysis of the deposited data

How the results depend on the processing

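*Lfng*, *Dll3*, *Notch1* and *Nrarp* were called lower at both doses in each of the 16 refits beside the reported one. The number of the 10 genes called was 4 at 25 nM RA, 7 at 1 µM RA and 2 between the doses. With the study's fold and RPKM criteria in place of the adjusted p alone these were 0, 1 (*Lfng*) and 0. Between the doses 1 gene was called at an adjusted p under 0.05, 1 in the quasi-likelihood test of edgeR, 1 without a filter on low counts, 0 in DESeq2 and 0 with transcripts fitted separately. Unadjusted p was under 0.05 between the doses for 1934 genes in edgeR and 962 in DESeq2. Leaving out 1 sample gave 4 to 6 genes at 25 nM RA, 6 to 8 at 1 µM RA and 0 to 2 between the doses. The log2 fold changes that turned direction then ranged from -0.17 to 0.86 for *Hes5* and from -0.0359 to 0.00526 for *Dll1* at 25 nM RA, and between the doses from -0.203 to 0.0374 for *Hes1*, from -0.13 to 0.91 for *Hes3* and from -0.0961 to 0.0259 for *Nrarp*. The rounded counts of *Hes3* and *Hes5*, at most 40 per dish, limit what can be called for both. Of 1533 values of called list genes recomputed, 147 were past the threshold no longer. On TMM library sizes of the estimated counts the summed RPKM was 138 in DMSO, 118 in 25 nM RA and 114 in 1 µM RA, against 113, 96.9 and 93.8 as deposited.

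Replicate differences correlated at -0.15, 0.19 and -0.22 between conditions over 9530 genes, so the numbers do not pair the samples. With a replicate block 4, 7 and 1 of the 10 genes were called, with *Hey1* lost between the doses (adjusted p = 0.104). Over all genes the block called 1138, 2756 and 423. With the numbers of the 25 nM RA samples crossed, a block added after seeing the data, 6, 8 and 2 of the 10 genes were called. Calls over all 15143 genes rose as well with that block, to 1567, 3791 and 934, against 1219, 2983 and 516 in the reported fit.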
